A study of Mus musculus with 24 samples.

Results

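The subunits of the oxidative phosphorylation complexes were followed in adipocytes that differentiated in culture with or without the green tea catechin EGCG (epigallocatechin gallate). Members were chosen by symbol: protein-coding genes named as Ndufa, Ndufab, Ndufb, Ndufc, Ndufs and Ndufv subunits, Sdha to Sdhd, Uqcr genes, Cox4 to Cox8 genes without Cox7a1 and Cox8b, Atp5a to Atp5l genes, and the mt-Nd, mt-Co, mt-Cytb and mt-Atp genes of mitochondrial DNA. The rule selected 95 of 37310 genes, 82 of them nuclear and 13 encoded in mitochondrial DNA. Of the nuclear members, Cox4nb and Atp5l-ps1 match the symbols but are not subunits, so 93 subunits remained. A filter on low values (below) kept 90 of these, namely 77 nuclear and 13 mitochondrial-encoded subunits. Cox7b2, Cox8c and a second identifier of Ndufb8 were listed at 0 in all libraries and could not be tested.

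Oxidative phosphorylation is the process by which mitochondria turn the energy of nutrients into ATP. Complex I takes electrons from NADH and complex II takes them from succinate. Complex III passes them to cytochrome c and complex IV to oxygen, while complexes I, III and IV pump protons across the inner membrane, and complex V, the ATP synthase, lets the protons return to make ATP. Most subunits are encoded in the nucleus and imported, but core subunits of complexes I, III, IV and V are encoded in mitochondrial DNA, and complex II is nuclear throughout. Brown adipocytes are rich in mitochondria and can release the proton gradient as heat, whereas white adipocytes hold fewer mitochondria.

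The cells were stromal vascular cells, freed with collagenase, of C57BL/6 mice that were 6 weeks old. White adipose tissue (WAT) was taken at the inguinal site, and brown adipose tissue (BAT) was interscapular. They were grown to confluence and then kept for 4 days in an induction medium with insulin (2.85 mM as the labels give it), 0.3 mM dexamethasone and 0.63 mM 3-isobutyl-methylxanthine, and for another 4 days in a medium with 200 nM insulin and 10 nM T3. Either EGCG, at a dose the labels do not give, or its solvent DMSO (control) was present, and RNA was taken on day 4 or day 8. This gave 8 groups of 3 libraries, 24 in all, in which depot, day and treatment were crossed. No genetic change is given in the labels. They do not say whether the replicates came from separate isolations, so p-values measure the spread between these libraries, which may be technical.

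Values are FPKM, read counts per kilobase of gene and scaled to the total of reads on genes. Replicates 1 and 2 had 39452696 to 52893848 reads on genes per library and replicate 3 had 16392420 to 41675643. Replicate 3 was deposited in a second table, where each library is likewise scaled to its own reads on genes. Tests used replicates 1 and 2, and replicate 3 was read for direction alone. The EGCG library of replicate 3 from WAT on day 8 stood apart, as 5 genes took 61.0% of its reads, against 3.64% to 10.5% in the other libraries. The 15 mature adipocyte markers were called lower with EGCG in both depots on both days, and their summed level in the control libraries was 4041 to 12869 FPKM, against 243 to 1793 FPKM in the EGCG libraries. Among these markers, Lep was listed at 0 in 3 libraries and no other marker was at 0. As whole cultures were sequenced, fewer adipocytes and less RNA per adipocyte cannot be told apart.

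The members had to be read with care where the genome holds copies of them. The nuclear genome holds fragments of mitochondrial DNA, and 6 of the 13 mitochondrial genes (mt-Nd3, mt-Nd4l, mt-Co2, mt-Co3, mt-Atp6 and mt-Atp8) had at least 99.1% of their length in exact matches of 50 bases or more elsewhere. These matches lie in a stretch of 4031 bases on chromosome 1 (chr1:24618374-24622404, build NCBIM37), in which the annotation places the genes Gm10222 and Gm10925. mt-Co2, the highest of these 6, and mt-Co1, the highest of all 13, are shown to compare an identical copy with one that differs. The 684 bases of mt-Co2, which encodes a core subunit of complex IV, are all identical on chromosome 1, while mt-Co1, the catalytic core of complex IV, has a full-length copy on chromosome 2 that differs at 37 of 1545 bases. The first 100 bases of mt-Co2 (chrM:7013-7112, plus strand) are the same letters as chr1:24622305-24622404 on the minus strand. A window of mt-Co1 (bases 435 to 534 of the gene; chrM:5762-5861, plus strand) is set against its copy (chr2:22444634-22444733, minus strand), and capitals mark the 5 bases that differ.

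mt-Co2: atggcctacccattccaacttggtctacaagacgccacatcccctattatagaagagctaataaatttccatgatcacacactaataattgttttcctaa

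mt-Co1: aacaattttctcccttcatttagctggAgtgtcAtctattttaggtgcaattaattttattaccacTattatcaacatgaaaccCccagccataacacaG

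mt-Co1 copy: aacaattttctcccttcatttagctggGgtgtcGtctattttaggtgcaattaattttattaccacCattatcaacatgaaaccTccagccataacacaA

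The 6 copied genes had a median level of 11.8 FPKM, from 1.61 for mt-Atp8 to 43.7 for mt-Co2. The other 7 (mt-Nd1, mt-Nd2, mt-Nd4, mt-Nd5, mt-Nd6, mt-Cytb and mt-Co1) had a median of 1387 FPKM, from 751 for mt-Nd6 to 6213 for mt-Co1. All 13 are thought to be cut from long shared transcripts of mitochondrial DNA. How reads that match in several places were counted is not given in the sources used here, and the part of the copies in the low level was not tested. The 7 are called resolved below, although matches cover 74.9% of mt-Co1 and 63.6% of mt-Nd4, whose first 876 bases are identical on chromosome 1, and 483 bases of mt-Co1 differ there at 1 base. Matches cover 24.3% or less of the other 5. With EGCG, 5, 5, 3 and 5 of those 5 were called lower in WAT day 4, WAT day 8, BAT day 4 and BAT day 8 cells. Of all genes tested, 19.3%, 18.9%, 20.6% and 26.1% were called lower in this order. mt-Nd6 lies on the strand opposite to its neighbours, and whether counting used the strand is not given either, so reads from both strands over that gene cannot be told apart.

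**Figure D1:**
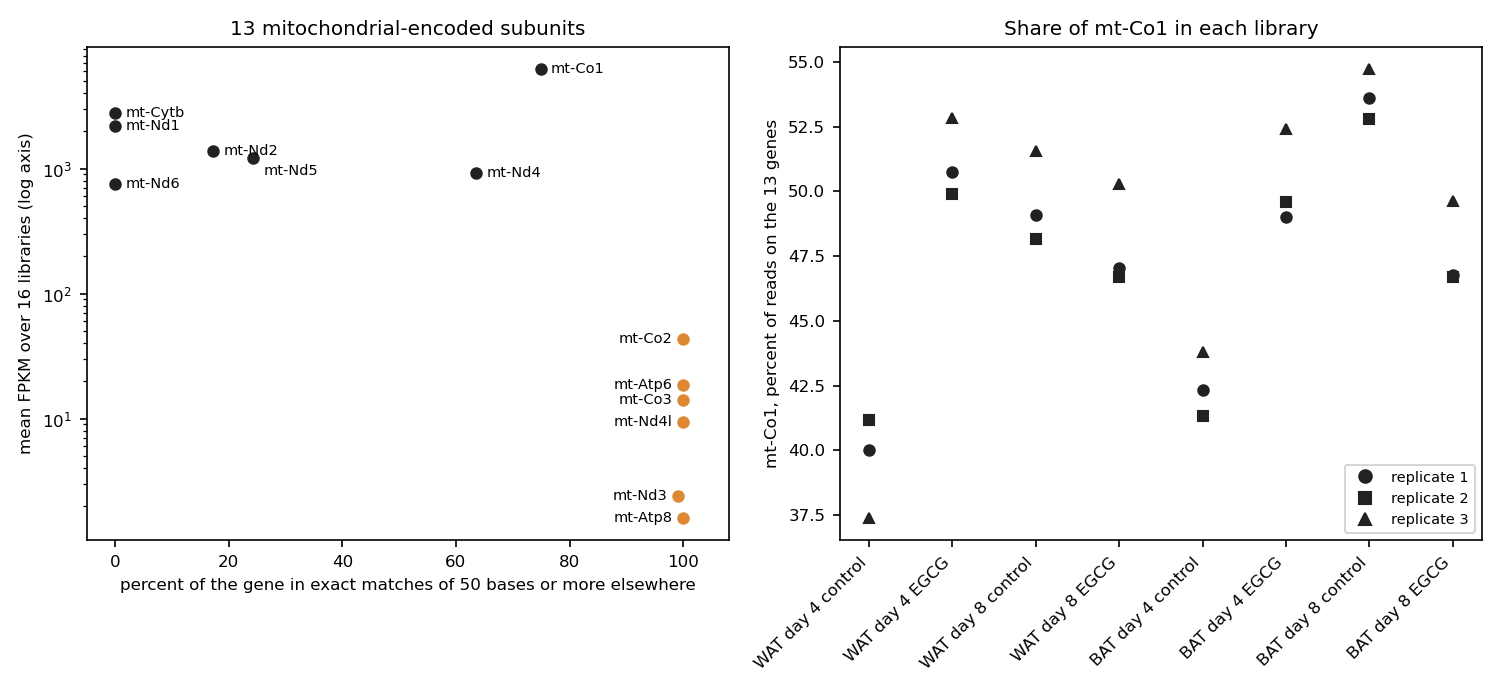
Left, mean FPKM over 16 libraries (log axis) of each mitochondrial-encoded subunit against the percent of the gene that lies in exact matches elsewhere; the 6 genes at 99.1% or more (orange) lie at 1.61 to 43.7 FPKM and the other 7 (black) at 751 to 6213 FPKM. Right, reads on mt-Co1 as a percent of reads on the 13 genes, 1 point per library. The percent ranged from 37.4% in WAT day 4 control cells to 54.7% in BAT day 8 control cells. The copied genes hardly count in the reads on the 13 genes.

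Nuclear subunits were measured at levels per length that differed between complexes. Over the 16 libraries of replicates 1 and 2 the median FPKM was 48.6 in complex I (37 subunits), 77.4 in complex II (4), 91.4 in complex III (8), 102 in complex IV (14) and 103 in complex V (14). The highest were Atp5b, the catalytic beta subunit of the ATP synthase, at a mean of 636 FPKM, and Cox4i1, the common form of a regulatory subunit of complex IV, at 439 FPKM. In complexes I, II and III the highest were Ndufa4 at 184 FPKM, Sdha at 130 FPKM and Uqcrh at 134 FPKM. Ndufa4 carries a complex I name but is now placed in complex IV. The lowest was Ndufb2, an accessory subunit of complex I, at 0.898 FPKM, and its values were 0.594 to 1.13 FPKM in replicates 1 and 2 but 2.43 to 10.1 FPKM in replicate 3. The values of Ndufb2 in the tables do not overlap. It is counted below as the fit gives it and is uncertain wherever it was called.

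The median FPKM of the 77 nuclear subunits gives the order of the groups. BAT day 8 control cells were highest, at 133, 134 and 147 FPKM in replicates 1, 2 and 3. BAT day 4 control cells followed at 84.6, 95.4 and 114 FPKM. WAT control cells had 66.0, 62.3 and 80.8 FPKM on day 4 and 58.5, 65.4 and 68.6 FPKM on day 8, and these ranges overlap. Each EGCG group was below the control of its own depot and day within each table. BAT cells with EGCG had 60.9, 62.8 and 69.7 FPKM on day 4 and 57.4, 59.3 and 70.8 FPKM on day 8. WAT cells with EGCG had 49.8, 45.7 and 53.6 FPKM on day 4 and 51.6, 53.3 and 23.7 FPKM on day 8, the last being the library with 61.0% of its reads in 5 genes. Without that library, the 4 EGCG groups spanned 45.7 to 70.8 FPKM, whereas the 4 control groups spanned 58.5 to 147 FPKM.

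**Figure D2:**
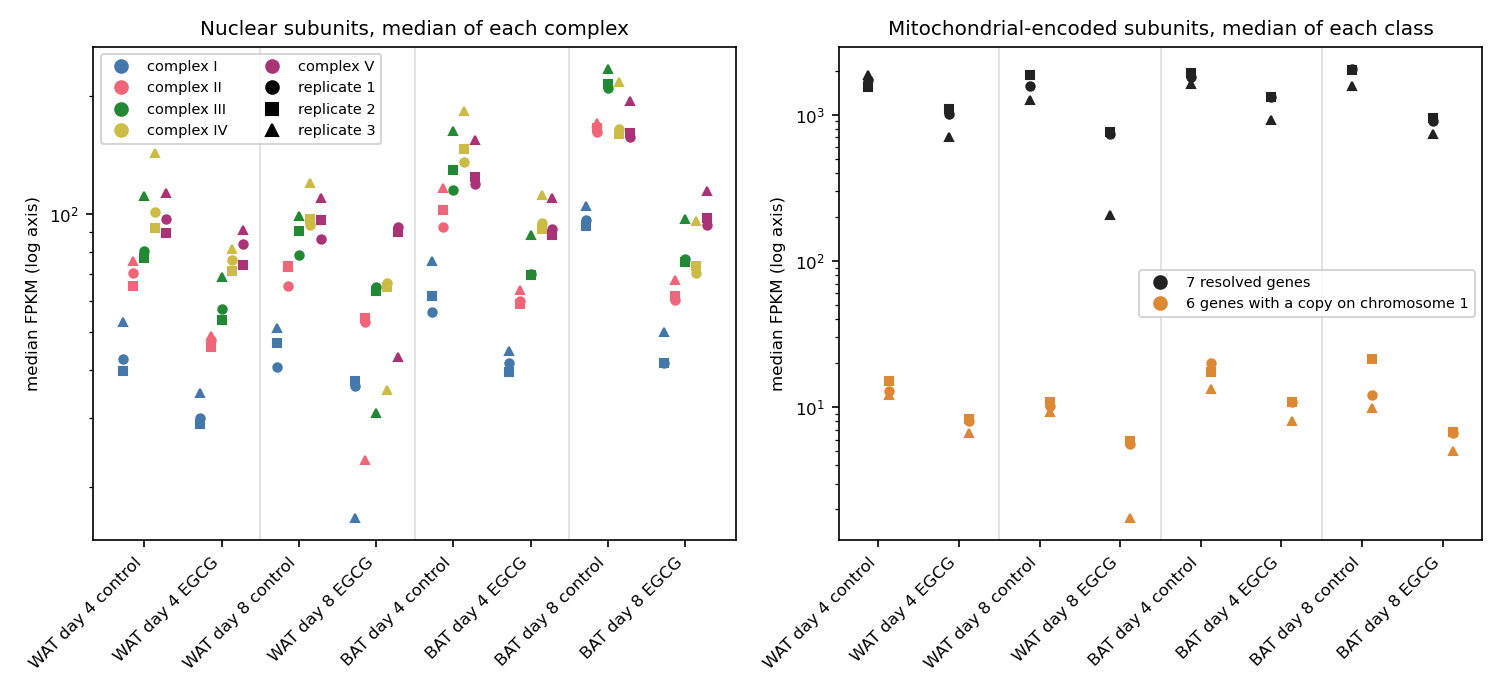
Median FPKM (log axis) per library in the 8 groups, with 1 marker shape per replicate: left, nuclear subunits of complexes I to V in separate colours; right, the 7 resolved mitochondrial genes (black) and the 6 copied ones (orange). The nuclear medians were highest in BAT day 8 control cells, and the resolved mitochondrial median was 1572 to 2041 FPKM there and 740 to 952 FPKM in BAT day 8 cells with EGCG.

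To examine the effect of EGCG on these genes, each EGCG group was compared with the control of the same depot and day. The differences are on the log2(FPKM + 1) scale, as EGCG minus control with the SE of the fit, and adjusted p-values are from limma over 14095 genes. On day 4 in WAT cells, 69 of the 90 subunits were called lower and 3 were called higher (at an adjusted p under 0.05), where 19.3% of all genes tested were called lower and 34.4% higher. The median change was -0.36 for nuclear and -0.38 for resolved mitochondrial subunits, against 0.09 for all genes. In BAT cells on day 4, 73 were called lower and 2 higher, against 20.6% and 27.9% of all genes, with medians of -0.55, -0.13 and 0.03 in the same order. Sdhb, the iron-sulfur subunit of complex II, had 65.6, 59.3 and 71.1 FPKM in WAT day 4 control cells and 38.3, 37.0 and 37.7 FPKM with EGCG. The change was -0.72 ± 0.07 (adjusted p = 4.9e-06), and all control libraries were above all EGCG libraries. Uqcrc2, a core subunit of complex III, had 95.1, 104 and 110 FPKM in BAT day 4 control cells and 50.8, 52.1 and 50.8 FPKM with EGCG, a change of -0.94 ± 0.06 (adjusted p = 1.3e-07). The groups do not overlap here either.

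On day 8 the depots differed. In BAT cells 85 of 90 subunits were called lower and 1 was called higher, against 26.1% and 46.5% of all genes tested. The median change was -1.2 for nuclear and -0.94 for resolved mitochondrial subunits, against 0.17 for all genes. In WAT cells 51 were called lower and 8 higher, against 18.9% and 44.7% of all genes, with medians of -0.20 (nuclear), -0.59 (resolved mitochondrial) and 0.17 (all genes). Median-ratio scaling of the libraries, which brought the median of all genes in this comparison to 0.00, gave 68 lower and 3 higher in WAT cells. The same scaling moved the median of all genes from 0.09 to -0.02 in WAT day 4, from 0.17 to 0.01 in BAT day 8, from -0.10 to 0.02 for BAT control cells between the days, from 0.15 to 0.02 between the depots on day 4, and from 0.13 to 0.01 for the difference of the BAT effects between the days.

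Among the nuclear subunits, Cox4i2 (described with the isoforms), Uqcrfs1, Sdha and Ndufb9 had the lowest changes on day 8 in BAT cells. Uqcrfs1, the Rieske iron-sulfur protein of complex III, had 222, 229 and 249 FPKM in BAT day 8 control cells and 48.8, 47.8 and 53.4 FPKM with EGCG. It fell by 2.2 ± 0.07 on the log2 scale (adjusted p = 1.9e-10). Sdha, the flavoprotein subunit of complex II that oxidises succinate, had 359, 351 and 325 FPKM in the control and 83.0, 83.3 and 88.4 FPKM with EGCG, a change of -2.08 ± 0.07 (adjusted p = 1.4e-10). Ndufb9, an accessory subunit of complex I, changed by -2.02 ± 0.08 and Cox4i1 by -1.75 ± 0.07. Atp5b had 1364, 1397 and 1366 FPKM in the control and 564, 568 and 642 FPKM with EGCG, a change of -1.28 ± 0.07 (adjusted p = 1.1e-08). For each of these the EGCG libraries were below every control library. In WAT cells on day 8 the lowest nuclear changes were those of Uqcrfs1 (-0.96 ± 0.07), Cox6a2 (-0.87 ± 0.18) and Cox7a2l (-0.80 ± 0.05), the last a factor of respiratory supercomplexes.

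The exceptions were few. Of the 90 subunits, 39 were called lower in all 4 EGCG comparisons, against 6.21% of all genes tested, and 10 were called higher in at least 1, against 66.1%. Cox6b2 was called higher in 3 of the 4 and Cox4i2 in both day 4 comparisons (described with the isoforms below). Ndufa7, Ndufa11, Ndufa13, Ndufb4, Ndufb7 and Ndufs6, all of complex I, were called higher in WAT day 8 cells, but with median-ratio scaling Ndufa7 and Ndufa11 alone of these 6 kept the call. Ndufa7 had 73.8, 75.3 and 81.5 FPKM in WAT day 8 control cells and 106, 103 and 44.8 FPKM with EGCG, a change of 0.48 ± 0.05 (adjusted p = 4.2e-06), and its EGCG value in replicate 3 is from the library with 61.0% of its reads in 5 genes. Ndufv3, a subunit of the NADH-oxidising part of complex I, was called higher in WAT day 4 cells (0.25 ± 0.06, adjusted p = 0.0038), and with median-ratio scaling that call was lost (0.12, adjusted p = 0.12).

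**Figure D3:**
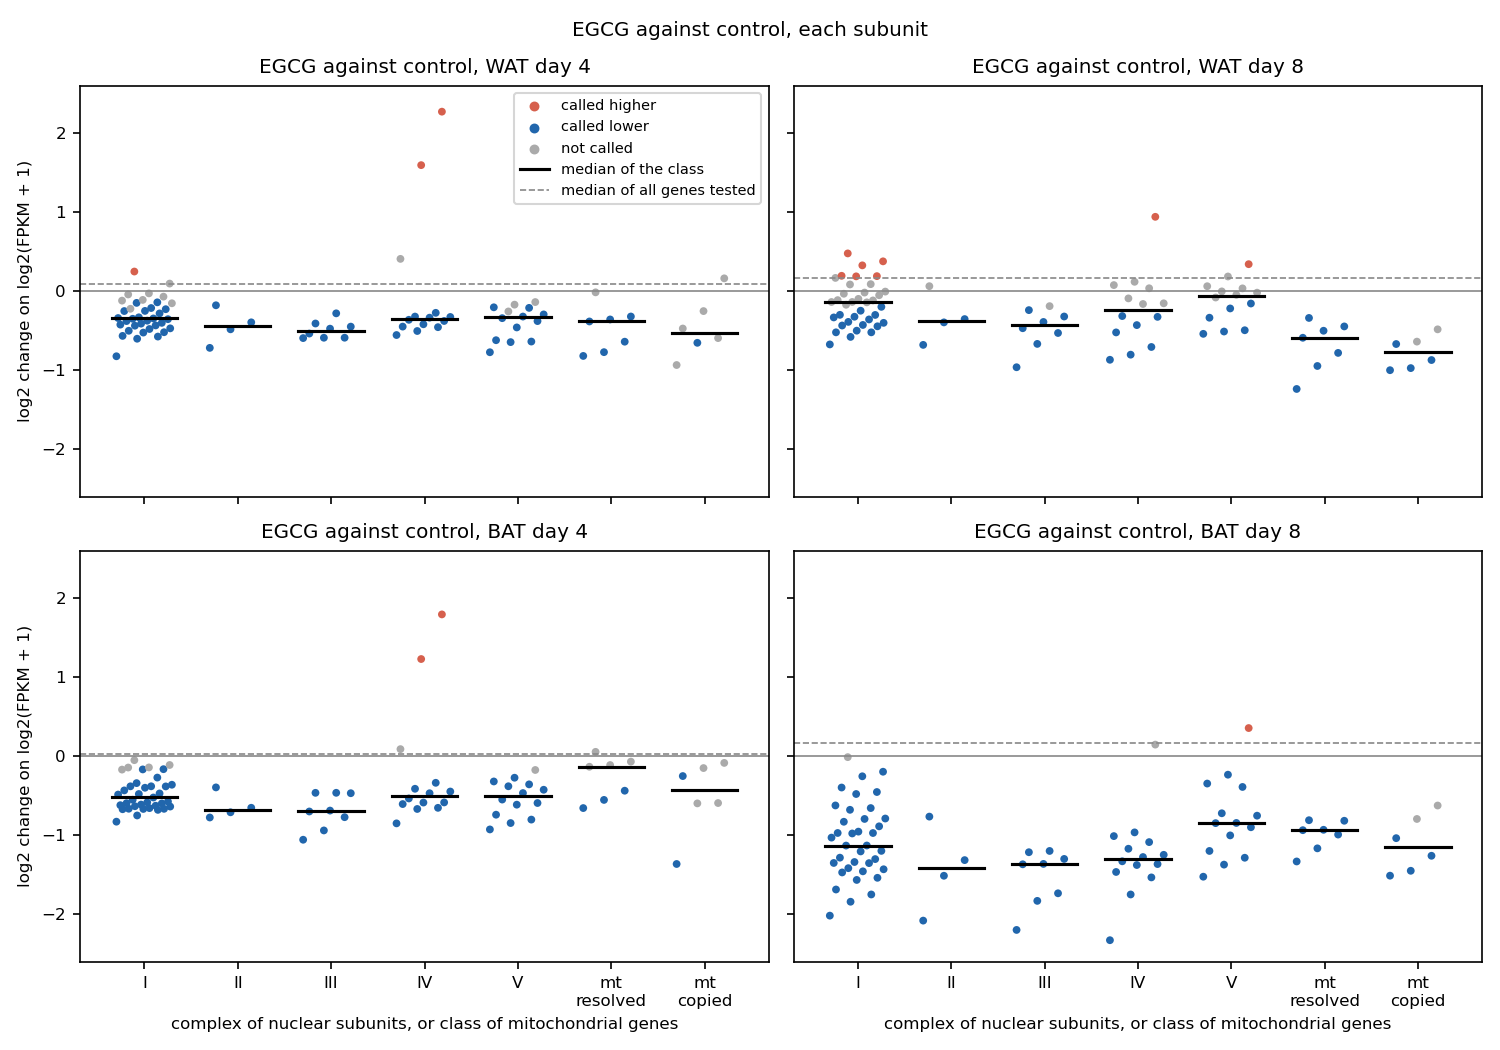
Log2 change of each of the 90 subunits with EGCG against control on the log2(FPKM + 1) scale, by depot and day, grouped by complex for nuclear genes and by class for mitochondrial genes; red was called higher, blue lower and grey neither, black bars are class medians and dashed lines the median of all genes tested. In BAT day 8 cells the class medians of complexes I to V were between -0.85 and -1.41.

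To compare the complexes, the nuclear subunits were read by complex. In BAT day 8 cells with EGCG the median change was -1.13 in complex I, with 36 of 37 called lower. It was -1.41 in complex II (4 of 4), -1.36 in complex III (8 of 8), -1.30 in complex IV (13 of 14) and -0.85 in complex V (13 of 14). Complexes II and III had the lowest medians in each of the 4 EGCG comparisons. In the other 3 these were -0.44 and -0.50 (WAT day 4), -0.37 and -0.43 (WAT day 8), and -0.68 and -0.69 (BAT day 4). Complex I had -0.34, -0.14 and -0.52 in these 3 comparisons, complex IV had -0.35, -0.24 and -0.50, and complex V had -0.33, -0.06 and -0.51. The differences between complexes were not tested. Complex I subunits other than Ndufb2 had changes from -2.02 (Ndufb9) to -0.20 (Ndufa7) in BAT day 8 cells.

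Whether the effect of EGCG depended on depot or day was tested as a difference of differences. On day 8 it was more negative in BAT than in WAT cells for 79 of 90 subunits (called lower; 19.7% of all genes were) and more positive for 0 (19.4% of all genes), with a median of -0.93 for nuclear and -0.37 for resolved mitochondrial subunits. Ndufb9 had the largest such difference outside Cox4i2, at -1.50 ± 0.12 (adjusted p = 3.6e-06). On day 4, 15 subunits, Ndufb2 among them, were called lower and 1 higher (mt-Co3), against 16.1% and 12% of all genes. With median-ratio scaling these counts were 5 and 3, so the counts on day 4 changed with the scaling. In BAT cells the effect was more negative on day 8 than on day 4 for 71 subunits and more positive for 1 (Atp5g1), against 20.6% and 34.7% of all genes. In WAT cells, 24 were called higher and 11 lower, against 29.7% and 19.7% of all genes (19 and 14 with median-ratio scaling, 17 and 16 with quantile normalization). These differences share libraries with the EGCG comparisons above and are not independent of them. The medium also differed between the days, so day and medium cannot be told apart.

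Among resolved mitochondrial genes, EGCG comparisons differed from gene to gene on day 4. mt-Nd1, a core membrane subunit of complex I, had 2761, 2517 and 2730 FPKM in WAT day 4 control cells and 1511, 1581 and 1229 FPKM with EGCG, a change of -0.77 ± 0.07 (adjusted p = 4.4e-06). mt-Co1 had 5733, 5489 and 5074 FPKM in the same control cells and 5495, 5626 and 4752 FPKM with EGCG. Its change was -0.01 ± 0.07 (adjusted p = 0.9), and the groups overlap. On day 4 in BAT cells mt-Nd1 (-0.66 ± 0.07), mt-Nd2 (-0.55 ± 0.08) and mt-Cytb (-0.44 ± 0.09) were called lower, while mt-Nd4, mt-Nd5, mt-Nd6 and mt-Co1 had changes of -0.13 to 0.06 that did not pass. By day 8 all 7 were called lower in both depots. mt-Co1 went from 10724, 10628 and 9424 FPKM in BAT day 8 control cells to 4162, 4323 and 3944 FPKM with EGCG (-1.33 ± 0.07, adjusted p = 1.0e-08). Quantile normalization, which gives each rank the same value in every library, gave 0.00 for mt-Co1 in BAT and 0.13 in WAT day 8 cells, with no call in either. Of the 6 copied genes, 1, 4, 2 and 4 were called lower in WAT day 4, WAT day 8, BAT day 4 and BAT day 8 cells. Of all genes tested, 19.3%, 18.9%, 20.6% and 26.1% were called lower in this order, and the day 4 counts are near these shares. mt-Co2 had 59.7, 89.0 and 63.5 FPKM in BAT day 8 control cells and 24.4, 25.5 and 27.0 FPKM with EGCG.

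As a share within each library does not depend on its scaling, the balance of nuclear and mitochondrial reads was also read from shares. A share still depends on how reads with several matches were counted, which is not given. In BAT day 8 control cells the copied genes took 0.00681% to 0.0103% of reads on genes. All mitochondrial subunits took 2.66% to 3.11% there. The mitochondrial shares below are thus almost wholly those of the resolved genes, and matches elsewhere cover 74.9% of mt-Co1. Mitochondrial genes took 60.0% to 65% of the reads on all subunits in BAT day 8 control cells and 60.1% to 67.6% with EGCG, ranges that overlap. In WAT day 8 cells they took 67.7% to 73.1% in the control and 58.1% to 66.6% with EGCG, and these do not overlap. In BAT day 4 cells the shares were 65.4% to 71.2% and 70.8% to 76.7%, and in WAT day 4 cells 70.2% to 74.7% and 70.1% to 77.1%, with overlap in both. Replicate 3 had the lowest share in each of the 8 groups, so the tables were also read apart. In BAT day 4 cells the shares of replicates 1 and 2 were 71.2% and 69.9% in the control and 76.3% and 76.7% with EGCG, and those of replicate 3 were 65.4% and 70.8%, so EGCG was above control within each table. On day 8 the BAT shares were 64.9% and 65% in the control and 66.8% and 67.6% with EGCG, and 60.0% and 60.1% in replicate 3. In WAT day 4 cells replicates 1 and 2 had 74.6% and 74.7% in the control and 75.4% and 77.1% with EGCG, while replicate 3 had 70.2% and 70.1%. Within the mitochondrial reads, mt-Co1 took 37.4% to 41.2% in WAT day 4 control cells and 49.9% to 52.8% with EGCG. The matching BAT shares were 41.3% to 43.8% and 49.0% to 52.4%. On day 8 in BAT cells the order was the other way, with 52.8% to 54.7% in the control and 46.7% to 49.6% with EGCG. None of these 3 pairs of groups overlap, and the WAT day 8 shares of 48.1% to 51.5% and 46.7% to 50.3% do, although within each table EGCG was below control.

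Several subunits exist as isoforms from separate genes, which are known to differ by tissue or condition. The minor Cox4i2, described elsewhere as a form used under low oxygen, had 0.585, 0.445 and 0.583 FPKM in WAT day 4 control cells and 3.77, 3.39 and 4.19 FPKM with EGCG, a change of 1.60 ± 0.09 (adjusted p = 8.1e-08). In BAT day 8 cells it went the other way, from 14.6, 16.6 and 15.1 FPKM in the control to 2.21, 2.40 and 2.13 FPKM with EGCG (-2.33 ± 0.09, adjusted p = 7.3e-10). Its EGCG values thus stayed between 0.753 and 4.19 FPKM in all 4 EGCG groups, and the control values moved from 0.406 to 0.585 FPKM on day 4 to 3.06 to 16.6 FPKM on day 8. The common Cox4i1 was called lower in all 4 comparisons. Cox6b2, a form best known from testis, had 1.80, 1.61 and 1.55 FPKM in WAT day 4 control cells and 13.6, 10.7 and 5.03 FPKM with EGCG (2.28 ± 0.13, adjusted p = 8.0e-08). In BAT day 4 cells it had 7.13, 9.16 and 7.02 FPKM in the control and 32.8, 28.5 and 21.0 FPKM with EGCG. In BAT day 8 cells its groups, at 7.73, 8.79 and 8.01 FPKM and 9.65, 8.85 and 7.57 FPKM, overlap. Its common partner Cox6b1 was called lower in all 4. Cox6a2, the muscle form, stayed at 5.10 FPKM or less in every library, against 173 to 1015 FPKM for Cox6a1.

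The genes Atp5g1, Atp5g2 and Atp5g3 encode the same mature c subunit of the ATP synthase ring, and they did not move alike. Atp5g1 was called lower with EGCG on day 4 and higher on day 8 in both depots. It had 8.29, 9.17 and 13.3 FPKM in BAT day 8 control cells and 11.3, 11.6 and 17.4 FPKM with EGCG, a change of 0.36 ± 0.07 (adjusted p = 0.00041), and was the single subunit called higher in that comparison. The ranges over all 3 replicates overlap, but within each table the EGCG value was above the control values. In WAT day 8 cells its change of 0.34 ± 0.07 (adjusted p = 0.00073) lost the call with median-ratio scaling (0.16, adjusted p = 0.056). Atp5g2 and Atp5g3 were called lower in all 4 comparisons, with changes in BAT day 8 cells of -0.39 ± 0.04 and -0.85 ± 0.07. Exact matches elsewhere cover 100% of Atp5g2, 35.9% of Atp5g1 and 0% of Atp5g3, so the values of Atp5g2 are uncertain. They also cover 72.8% of Cox7a2l. The difference between the day 8 and day 4 effects was called for Atp5g1 in both depots, at 0.98 ± 0.09 in WAT and 0.91 ± 0.09 in BAT cells. Of the other pairs named, Cox7a2 and Cox8a were called lower in 3 comparisons and did not pass in WAT day 8 cells (0.08 ± 0.10 and 0.04 ± 0.07), and so was Cox7b (-0.16 ± 0.07 there), while Cox7a2l was called lower in all 4.

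**Figure D4:**
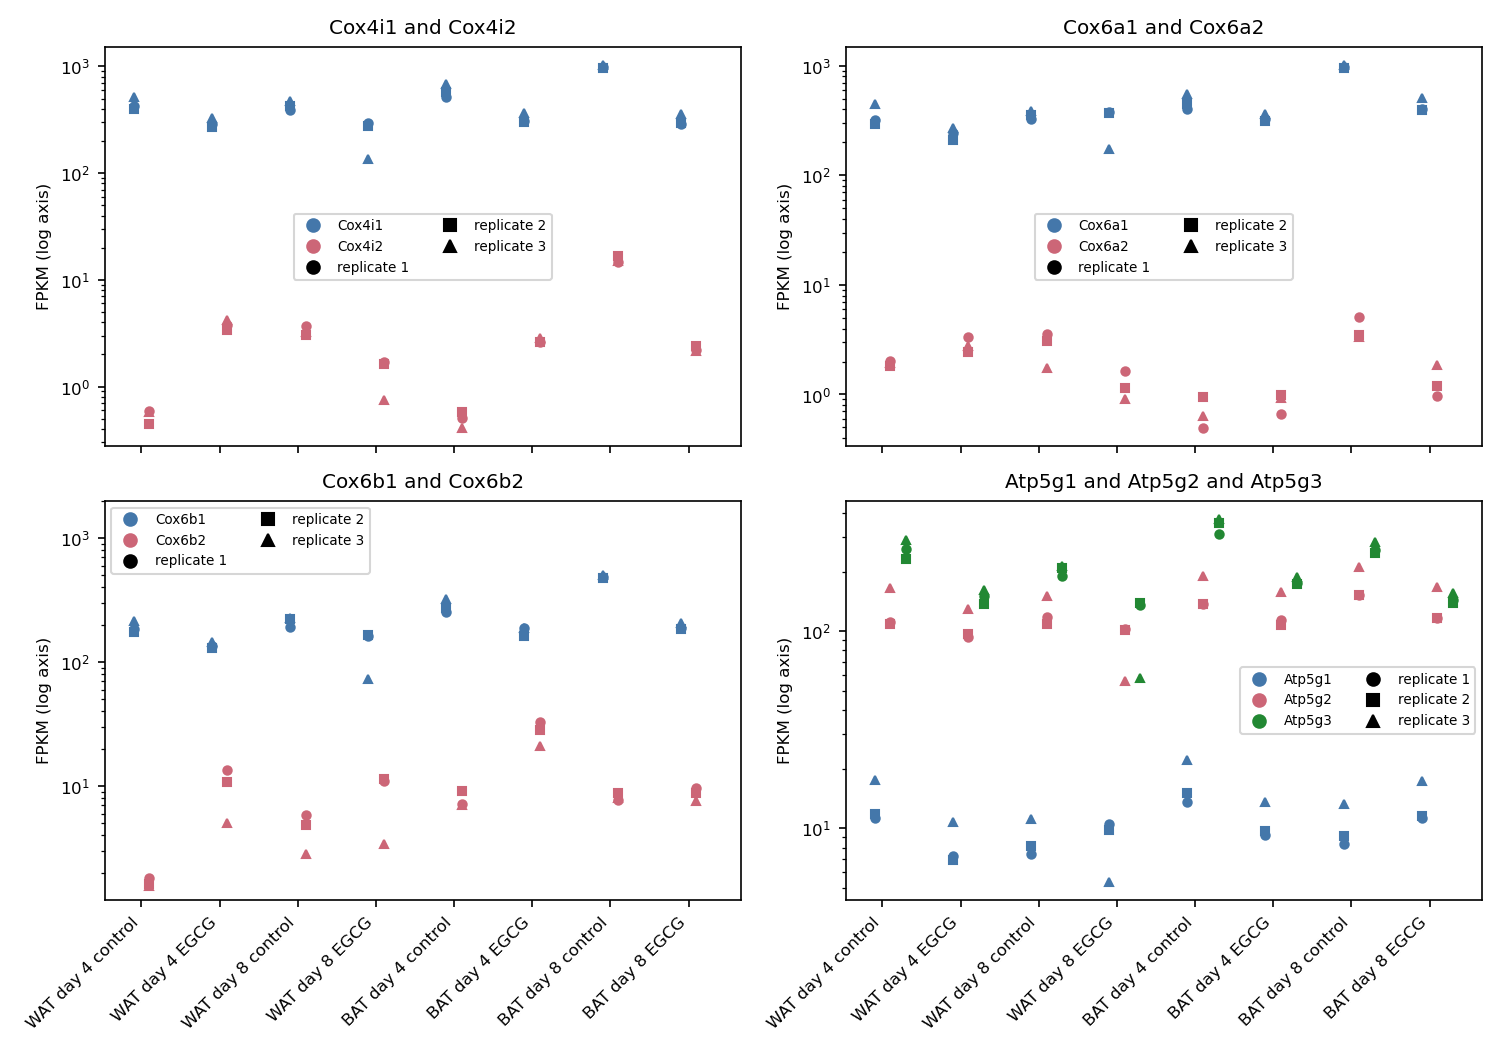
FPKM (log axis) of complex IV isoform pairs and of the 3 c subunit genes of complex V in the 24 libraries of the 8 groups, 1 marker shape per replicate. Cox4i2 lay at 0.406 to 0.585 FPKM in day 4 control cells and at 14.6 to 16.6 FPKM in BAT day 8 control cells, while Atp5g1 was the lowest of the c subunit genes in each library.

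To describe the change between the days without EGCG, day 8 control cells were compared with day 4 control cells. The induction medium was replaced after day 4, so day and medium cannot be told apart. In BAT cells, 73 of 90 subunits were called higher on day 8 and 5 lower, against 28.7% and 40.4% of all genes tested. The median was 0.65 for nuclear and 0.15 for resolved mitochondrial subunits, against -0.10 for all genes. By complex the nuclear medians were 0.65 in complex I, 0.75 in complex II, 0.80 in complex III, 0.83 in complex IV and 0.46 in complex V, with 34, 4, 8, 12 and 11 called higher. Cox4i2 (3.43 ± 0.09), Ndufb9 (1.25 ± 0.08) and Sdha (1.2 ± 0.07) were among the genes that rose. Sdha went from 145, 162 and 164 FPKM on day 4 to 359, 351 and 325 FPKM on day 8, and the days do not overlap. The 5 called lower were mt-Nd1, Cox7a2l, Atp5g1, Atp5g3 and the uncertain Ndufb2. In WAT cells, 15 were called higher and 12 lower, against 27.7% and 33.2% of all genes, with medians of 0.05 (nuclear) and -0.26 (resolved mitochondrial). With median-ratio scaling the counts were 21 and 11. Cox4i2 (1.53 ± 0.09), Cox6b2 (1.23 ± 0.13) and Atp5k (0.60 ± 0.16) were the highest nuclear subunits there, though Atp5k had -0.40 in replicate 3, and Ndufa4 (-0.68 ± 0.10) and Atp5g1 (-0.51 ± 0.07) the lowest. The BAT day 8 control libraries also serve in the BAT day 8 EGCG comparison above, so the pair of results share them. Of 15 mature adipocyte markers, 12 were called higher and 0 lower on day 8 in BAT control cells. In WAT control cells the counts were 11 and 1. Of 6 skeletal muscle markers, 6 were called higher and 0 lower in BAT cells, and 0 and 5 in WAT cells. The part of such shifts between cells in the changes of the subunits was not tested.

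With EGCG, day 8 was compared with day 4 in the same way, with the same change of medium between the days. In BAT cells 17 subunits were called higher and 23 lower, against 29.7% and 28.2% of all genes, and the nuclear median was 0.05. In WAT cells 39 were called higher and 13 lower, against 31.8% and 27.7% of all genes (27 and 19 with quantile normalization), with a nuclear median of 0.20. In replicate 3 as deposited, 0 of these 39 were higher on day 8 and 13 of the 13 were lower, whereas with median-ratio scaling all 39 were higher. The WAT day 8 library in that comparison is the one with 61.0% of its reads in 5 genes. All 7 resolved mitochondrial genes were called lower on day 8 in BAT cells and 6 in WAT cells, with medians of -0.51 and -0.50. Cox7a2l (-0.87 ± 0.05) and Cox6b2 (-1.62 ± 0.13) were the lowest nuclear subunits in BAT cells, and Ndufb4, an accessory subunit of complex I, was among the highest in both depots (0.55 ± 0.07 in BAT and 0.70 ± 0.07 in WAT cells).

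To compare the depots, BAT control cells were set against WAT control cells of the same day. On day 4, 78 of 90 subunits were called higher in BAT cells and 1 (Cox6a2) lower, against 41.4% and 14.4% of all genes, with medians of 0.51 for nuclear and 0.23 for resolved mitochondrial subunits and 0.15 for all genes. With median-ratio scaling 66 were called higher and 2 lower, and none of the resolved mitochondrial genes passed. On day 8, 83 were called higher and 0 lower, against 31.6% and 22% of all genes. The medians were 1.08 (nuclear), 0.67 (resolved mitochondrial) and 0.05 (all genes), and by complex 1.07, 1.23, 1.23, 1.25 and 0.94. Sdha (1.57 ± 0.07) was among the highest and Cox7a2l (0.19 ± 0.05) among the lowest of those called. Among the mitochondrial genes mt-Cytb (0.87 ± 0.09), mt-Co1 (0.78 ± 0.07) and mt-Nd5 (0.75 ± 0.07) were higher in BAT cells, and mt-Nd1 (-0.03 ± 0.07) did not pass. Of 15 mature adipocyte markers, 13 were called higher and 1 lower in BAT cells on day 4, and 12 and 0 on day 8. The median changes of these markers were 0.96 and 0.91. The part of adipocyte content in the depot differences of the subunits was not tested.

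**Figure D5:**
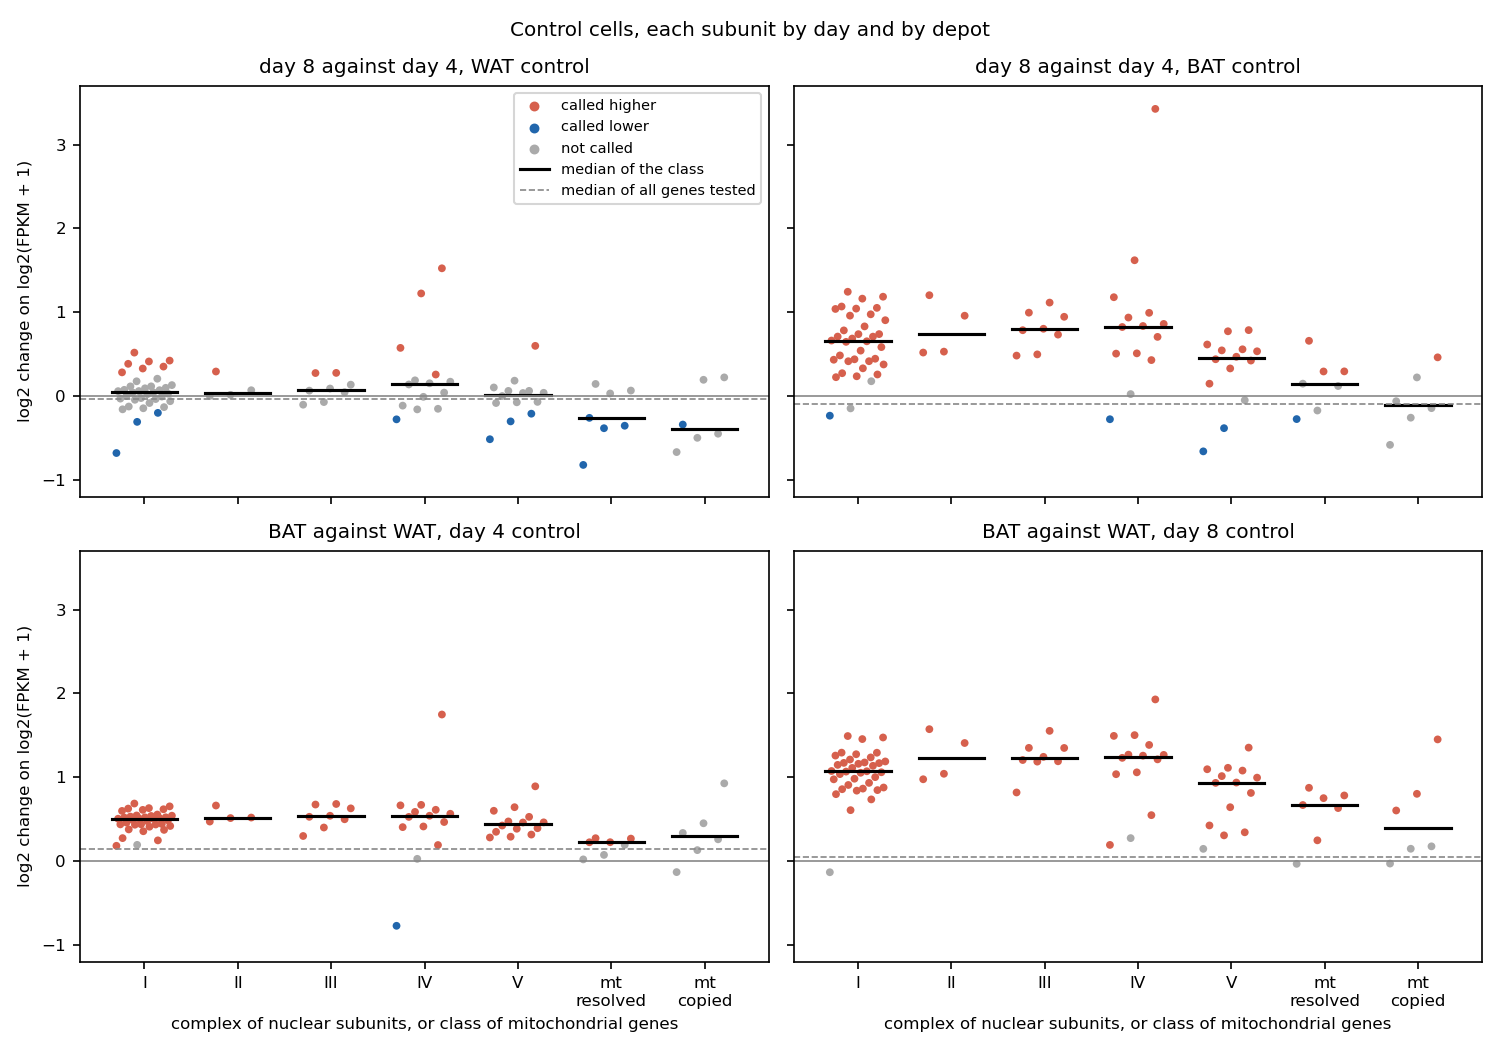
Log2 change of each of the 90 subunits in control cells on the log2(FPKM + 1) scale, day 8 against day 4 in WAT and in BAT cells (top) and BAT against WAT cells on day 4 and on day 8 (bottom), with colours, bars and dashed lines as in the plot of EGCG changes. Nuclear medians were 0.05 and 0.65 for the days and 0.51 and 1.08 for the depots, in that order.

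Replicate 3 was compared for direction. Of the subunits called with EGCG, 71 of 72 (WAT day 4), 75 of 75 (BAT day 4) and 86 of 86 (BAT day 8) had the same sign in replicate 3. In WAT day 8 cells it was 52 of 59, with 1 of the 8 higher calls, and 57 of 59 with median-ratio scaling, with 7 of the 8. Between the days in control cells it was 24 of 27 in WAT and 77 of 78 in BAT cells, and with EGCG it was 13 of 52 in WAT cells (52 with median-ratio scaling) and 38 of 40 in BAT cells. Between the depots it was 79 of 79 on day 4 (75 with median-ratio scaling) and 82 of 83 on day 8. Beyond the mitochondrial copies, 44 of the nuclear members had some exact match of 50 bases or more elsewhere in the genome, and such subunits are uncertain where reads could be split. Among the 35 tested nuclear subunits without such a match, 34 were called lower with EGCG in BAT day 8 cells, with a median of -1.33. Of all genes tested, 26.1% were called lower there. The other EGCG comparisons are not given in this way.

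The promoters of nuclear subunits are known to hold sites for NRF1, for ETS factors of the GABP kind, for YY1 and for the estrogen-related receptors (ERR), through which they are thought to be kept in step. The letters of these sites were searched on both strands in RefSeq promoters (assembly GRCm38.p6, 250 bases before to 50 after the start of the gene), which were found for 65 of 79 nuclear subunit symbols. The NRF1 core GCGCANGCG was found in 19 of 65 (29.2%), against 7.03% of all 27025 promoters. The ETS core CCGGAAG was found in 16 (24.6%, against 9.93%), the YY1 core AAGATGGCG in 7 (10.8%, against 1.64%) and the ERR element TCAAGGTCA in 2 (3.08%, against 0.466%). Matches to different motifs did not overlap each other. Of the promoters of 9070 genes tested here, 15%, 19.3%, 3.44% and 0.32% held the 4 motifs. The promoters of Sdha and Sdhd are shown because they held 3 matches each, and those of Uqcrfs1 and Cox6b2 because these genes had the largest decrease in complex III and the largest increases with EGCG and held none. Capitals mark matches.

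Sdha (chr13:74350191-74350490, minus strand; NRF1 core 3 times):

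Sdha: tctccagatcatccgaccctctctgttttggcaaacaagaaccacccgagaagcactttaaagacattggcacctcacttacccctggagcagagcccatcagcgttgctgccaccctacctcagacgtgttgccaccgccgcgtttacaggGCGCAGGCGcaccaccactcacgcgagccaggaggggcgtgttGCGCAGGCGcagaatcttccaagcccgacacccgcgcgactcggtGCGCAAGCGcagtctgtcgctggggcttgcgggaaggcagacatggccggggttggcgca

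Sdhd (chr9:50603800-50604099, minus strand; NRF1, ETS and ERR in this order):

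Sdhd: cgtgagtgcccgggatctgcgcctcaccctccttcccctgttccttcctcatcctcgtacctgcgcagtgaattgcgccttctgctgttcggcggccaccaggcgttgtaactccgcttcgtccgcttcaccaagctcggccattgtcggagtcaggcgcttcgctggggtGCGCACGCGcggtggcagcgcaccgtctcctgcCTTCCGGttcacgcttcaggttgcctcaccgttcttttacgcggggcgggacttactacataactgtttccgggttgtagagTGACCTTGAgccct

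Uqcrfs1 (chr13:30545267-30545566, minus strand) and Cox6b2 (chr7:4753045-4753344, minus strand):

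Uqcrfs1: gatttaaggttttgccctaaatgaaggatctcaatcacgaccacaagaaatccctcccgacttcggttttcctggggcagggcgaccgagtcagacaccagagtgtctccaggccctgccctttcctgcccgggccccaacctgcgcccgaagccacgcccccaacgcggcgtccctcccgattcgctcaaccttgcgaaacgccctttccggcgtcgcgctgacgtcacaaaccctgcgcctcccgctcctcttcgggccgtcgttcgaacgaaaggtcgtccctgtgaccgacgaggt

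Cox6b2: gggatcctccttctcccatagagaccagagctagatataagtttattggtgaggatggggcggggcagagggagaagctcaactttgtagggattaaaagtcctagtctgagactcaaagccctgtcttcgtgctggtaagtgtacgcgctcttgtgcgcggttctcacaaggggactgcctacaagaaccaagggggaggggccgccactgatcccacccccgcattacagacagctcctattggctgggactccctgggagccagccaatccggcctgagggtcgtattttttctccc

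A match is a run of letters and not evidence of binding. In BAT day 8 cells the median change with EGCG was -1.0 for the 19 subunits with an NRF1 core and -1.17 for 45 without. It was -1.15 with and without the ETS core (16 and 48 subunits), -0.95 and -1.2 with and without the YY1 core (7 and 57), and -1.08 and -1.15 with and without the ERR element (2 and 62). Uqcrfs1, which held none of the 4, had the lowest change of complex III.

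To set the subunits beside their regulators, a list of genes that control mitochondrial transcription and biogenesis was read in the same fits (22 tested). With EGCG, 8 were called higher and 4 lower on day 4 in WAT cells, and 1 and 9 in BAT cells. On day 8 the counts were 7 and 4 in WAT cells, and 5 and 11 in BAT cells. In WAT cells these lie near or below the shares of all genes (34.4% higher and 19.3% lower on day 4, 44.7% and 18.9% on day 8). In BAT cells 27.9% of all genes were called higher and 20.6% lower on day 4, and 46.5% and 26.1% on day 8. The regulators lie above these BAT shares for lower calls and below them for higher calls. Ppargc1a and Ppargc1b, the coactivators of mitochondrial biogenesis, were called lower in all 4 comparisons. Pprc1, of the same family, was called lower in WAT day 4 cells (-0.29 ± 0.06) and higher in BAT day 8 cells (1.27 ± 0.06, adjusted p = 3.4e-09), and did not pass in the others. Ppargc1b had 8.81, 7.72 and 5.53 FPKM in BAT day 8 control cells and 0.794, 0.522 and 0.444 FPKM with EGCG (-2.48 ± 0.11, adjusted p = 1.5e-09), and Ppargc1a changed by -1.77 ± 0.12 there. Esrra, which encodes ERR alpha, changed by -0.77 ± 0.09 in BAT day 8 cells but was called higher in WAT day 4 cells (0.25 ± 0.09, adjusted p = 0.032). In BAT day 8 cells Nrf1 (0.83 ± 0.06, adjusted p = 1.6e-07), Gabpa (0.31 ± 0.04), Gabpb1 (0.51 ± 0.08) and Yy1 (0.38 ± 0.07) were called higher. Tfam, the packaging and transcription factor of mitochondrial DNA, changed by -0.16 ± 0.06 there (adjusted p = 0.03).

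Assembly factors, which build the complexes but are not part of them, were called lower for 11, 7, 12 and 19 of 29 in WAT day 4, WAT day 8, BAT day 4 and BAT day 8 cells, and higher for 3, 6, 0 and 1. Of all genes, 19.3%, 18.9%, 20.6% and 26.1% were called lower and 34.4%, 44.7%, 27.9% and 46.5% higher, and the WAT day 8 count is near the share of lower calls. In BAT day 8 cells Atpaf2, an assembly factor of the ATP synthase, changed by -1.22 ± 0.07, Taco1, a translational activator of mt-Co1, by -1.19 ± 0.06, and Surf1, a complex IV factor, by -0.68 ± 0.06. Genes of the outer membrane and of protein import showed 10, 3, 13 and 7 of 20 called lower and 2, 12, 0 and 6 called higher, to be read against the same shares. Tomm20, an import receptor, was called higher in BAT day 8 cells (0.38 ± 0.06) and Vdac1, the main channel of the outer membrane, was called lower (-0.60 ± 0.06). Between the depots on day 8, 26 of 29 assembly factors and 18 of 20 outer membrane and import genes were called higher in BAT control cells. Of all genes tested, 31.6% were called higher in that comparison.

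The isoforms Cox7a1 and Cox8b were outside the members but belong to complex IV. Cox7a1 had 191, 190 and 176 FPKM in BAT day 8 control cells and 2.87, 3.64 and 4.30 FPKM with EGCG, a change of -5.50 ± 0.15 (adjusted p = 4.3e-11), and Cox8b changed by -4.84 ± 0.23. Ucp1, the protein that lets protons bypass the ATP synthase, had 6.97, 6.15 and 4.20 FPKM in BAT day 8 control cells and was listed at 0 with EGCG. Of these 3 genes, 1 was called higher and 1 lower on day 4 in WAT cells, 2 were called lower on day 8 in WAT and on day 4 in BAT cells, and 3 on day 8 in BAT cells. Of all genes tested, 34.4% were called higher and 19.3% lower in WAT day 4 cells, so the higher count there is near its share. In WAT day 8, BAT day 4 and BAT day 8 cells, 18.9%, 20.6% and 26.1% were called lower.

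Markers of other cells were read in the same EGCG comparisons. Of 6 macrophage markers tested, 5 were called higher on day 4 and 6 lower on day 8 in both depots, and their summed level in BAT cells was 186 to 211 FPKM in day 4 control, 402 to 485 FPKM in day 4 EGCG, 129 to 144 FPKM in day 8 control and 60.0 to 61.3 FPKM in day 8 EGCG libraries. Of 6 endothelial markers, 5, 4, 5 and 5 were called higher and 0, 1, 0 and 1 lower in WAT day 4, WAT day 8, BAT day 4 and BAT day 8 cells, with summed levels of 11.2 to 38.8 FPKM over the 24 libraries. Of 6 skeletal muscle markers, 5, 2, 0 and 0 were called higher and 0, 1, 0 and 3 lower, with summed levels of 18.1 to 128 FPKM. Of all genes, 34.4%, 44.7%, 27.9% and 46.5% were called higher and 19.3%, 18.9%, 20.6% and 26.1% lower in this order. The muscle counts in WAT day 8 cells are near or below these shares. The part of these other cells in the changes of the subunits was not tested.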

How the data were processed

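RNA sequencing of 24 libraries was used. Per the submitters' processing notes, FastQC 0.11.9, HISAT2 2.2.0, HTSeq 0.11 and the build mm9 were used. The authors deposited FPKM values of 37310 genes in 2 tables, replicates 1 and 2 (16 libraries) and replicate 3 (8 libraries). In both, each library is scaled to its own total of reads on genes. With the longest annotated transcript as length, 100% of values came out as whole reads within 0.01 in each library. Strand use and the handling of reads with several matches are not given in the sources used here.

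Groups followed the labels. Genes with at least 1 FPKM in at least 2 libraries were kept (14095), and limma 3.58.1 (R 4.3.3) was fitted with a trend to log2(FPKM + 1), a scale that understates changes of low genes, over the 16 libraries. Calls had a Benjamini-Hochberg adjusted p under 0.05 over all genes of a comparison. The steps were tested on simulated data. Named were all mitochondrial members, the isoform sets, the highest subunit of each complex, and in each comparison the 2 highest and 2 lowest called nuclear members with at least 5 FPKM in the higher group. Sdhb, Uqcrc2, Ndufb2 and others given as examples were chosen after their values were seen. Members and lists were chosen with earlier results of these data known. Exact matches were searched in the NCBIM37 genome with pysam 0.24.0 and blastn 2.17.0. Alternatives changed the pseudocount (0.1), filter (none, 5 FPKM), scaling, trend, replicate block, and libraries used.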

Additional observations from a re-analysis of the deposited data

Results flagged for a closer look

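The effect of EGCG was compared between depots and days by a test of the difference itself with limma (adjusted p under 0.05 over all genes). On day 8, 79 of 90 subunits were called lower for the BAT effect minus the WAT effect, against 19.7% of all genes. On day 4, 15 were called lower and 1 higher, against 16.1% and 12% of all genes, so the lower count is near that share, and median-ratio scaling gave 5 and 3. For the day 8 effect minus the day 4 effect, 71 were called lower and 1 higher in BAT cells, against 20.6% and 34.7% of all genes. In WAT cells 24 were called higher and 11 lower, which is below the 29.7% and 19.7% of all genes.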

How the results depend on the processing

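No pairing of libraries 1 and 2 by replicate number was detected: correlations of deviations over 28 pairs of groups were -0.079 to 0.081, with 0 above 0.1. Low correlations over all genes cannot show whether libraries of the same number share an isolation. With the number as a block, 3 higher and 68 lower (WAT day 4), 8 and 50 (WAT day 8), 2 and 73 (BAT day 4) and 1 and 85 (BAT day 8) were called with EGCG, and no count in any comparison moved by over 1.5 times. Median-ratio scaling gave 3 higher in WAT day 8 cells in place of 8, 2 lower in place of 5 for BAT control cells between the days, 2 lower in place of 1 between the depots on day 4, and 3 higher and 5 lower in place of 1 and 15 for the depot difference on day 4. Quantile normalization gave 2 lower between the depots on day 4, 6 higher for the depot difference on day 4, 1 higher in place of 0 for that on day 8, and 3 higher in place of 1 for the day difference in BAT cells, where limma without trend gave 2. With no filter the depot difference on day 4 had 0 higher and 8 lower, and the day difference in WAT cells 7 lower in place of 11. The 5 FPKM filter left 0 lower between the depots on day 4. The block over both tables with median-ratio scaling gave 5 higher in WAT day 8, 2 lower between the depots on day 4 and 7 higher for the depot difference on day 4. Without the library that stands apart, an alternative chosen after seeing the data, these were 4, 2 and 6. The causes of these changes were not tested.

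Leaving out 1 library at a time gave 5 to 10 higher in WAT day 8 with EGCG, 11 to 27 higher and 7 to 15 lower for WAT control cells between the days (7 without WAT day 4 control replicate 1, 27 without WAT day 8 control replicate 1), and 24 to 38 higher for WAT cells with EGCG between the days (24 without WAT day 4 EGCG replicate 2). It gave 8 to 15 higher for BAT cells with EGCG between the days (8 without BAT day 4 EGCG replicate 2 or BAT day 8 EGCG replicate 2), 0 to 1 higher and 5 to 19 lower for the depot difference on day 4, 12 to 32 higher and 8 to 18 lower for the day difference in WAT cells, and 1 to 2 higher for that in BAT cells. The nuclear median for WAT control cells between the days turned from 0.05 to -0.01 without WAT day 4 control replicate 2 and to -0.02 without WAT day 8 control replicate 2 (range -0.02 to 0.11), and that for BAT cells with EGCG from 0.05 to -0.00 without BAT day 4 EGCG replicate 2. Of 292 calls of named genes, 82 lost the call or changed sign in at least 1 alternative and 0 were called in the opposite direction. With 2 libraries a group in the tests, small changes of lowly measured subunits are the least certain.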
